A study of Mus musculus with 6 samples.

Results

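The genes described here are the glutathione transferases and the enzymes that make, reduce, use and break down glutathione. They were chosen by name and number 37. In all, 22180 genes had a probe set of their own on the arrays. Of the 37 genes, 24 encode glutathione transferases of the alpha, mu, pi, theta, omega, kappa, zeta and microsomal classes, and 13 encode enzymes of glutathione synthesis, reduction, peroxide removal and breakdown. Of the 37, 33 are among these, 20 transferases and all 13 others. Gsta1, Gsta2, Gstm5 and Gstz1 had only probe sets that name other genes as well, so no level is given for these 4.

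Glutathione is a tripeptide of glutamate, cysteine and glycine and the main small thiol of the cell. Transferases join it to electrophilic compounds such as drugs, toxins and products of lipid peroxidation, and the conjugates are exported and processed to mercapturic acids, a route in which the kidney takes a large part. Glutathione peroxidases spend it on hydrogen peroxide and lipid hydroperoxides, and glutathione reductase restores it with NADPH. Proximal tubule cells take up its amino acids again after gamma-glutamyl transferase and dipeptidases have split it at the brush border.

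Arrays were run on kidney RNA of 3 db/db and 3 db/m mice, 1 array per mouse, labelled as biological replicates. All mice were males of the C57BL/KsJ strain, killed at 22 weeks of age. The db/db mice are homozygous for a mutation of the leptin receptor gene and become obese and diabetic, and their db/m littermates were the nondiabetic controls. The sample labels give the tissue as kidney and the methods as renal cortex, and the db mutation is carried throughout the body.

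Values are signals on the log2 scale, so a difference of 1 is a 2-fold change. The median signal of an array lay between 3.36 and 3.43, and 2 of the 33 measured genes, Gstm3 and Mgst2, had a mean under the median over all probe sets. Log2 fold changes are db/db minus db/m, and a gene was called changed at an adjusted p under 0.05 in limma, adjusted by the Benjamini-Hochberg method over all 22180 genes. Signals of different probe sets are not levels that can be compared between genes, and "brightest" below only says which probe set of a group had the highest mean signal.

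Markers of the kidney tubule were checked first. The proximal tubule phosphate transporter Slc34a1 measured 12.1 to 12.2 on all 6 arrays. The median log2 fold change of 10 proximal tubule markers was -0.03, and 4 of them were positive. Kap was called lower, at -0.87, and the others lay between -0.28 and 0.35, none of them called. Summed linear signals, with Kap included, were 21995 to 23173 in db/db mice and 23253 to 24818 in db/m mice. A sum without Kap was not taken. Markers of the S3 segment, the last stretch of the proximal tubule, had a summed linear signal of 1219.6 to 1579 in db/db mice and 2443 to 2969 in db/m mice, with Slc7a13 and Slc22a7 called lower, 2 of 4 measured. Of the other S3 markers, Slc5a1 was higher in every db/db mouse, with a log2 fold change of 0.52. Slc22a13 gave -0.45 with overlap, and neither of these was called. The called Slc22a7 was near the array median in db/db replicates 1 and 2, at 3.74 and 3.15. All 4 thick ascending limb markers, all 3 of the distal convoluted tubule and all 7 of the collecting duct had positive log2 fold changes and none was called, with summed signals of 5136 to 6076, 2310.3 to 2611 and 2131 to 2468 in db/db mice and of 4555 to 5034.5, 1776 to 2145 and 1819.6 to 2116 in db/m mice. The 4 measured podocyte markers were likewise positive and uncalled, with summed signals of 722 to 765 in db/db mice and 611 to 711 in db/m mice. The 4 measured T cell markers summed to 41.8 to 46.2 in db/db mice and 63.4 to 78.1 in db/m mice, with Cd3e called lower. All 4 macrophage markers were negative and uncalled, with sums of 204 to 269 in db/db mice and 263 to 279 in db/m mice. Liver markers summed to 3114 to 3647 in db/db mice and 3868 to 4464 in db/m mice. None of them was called, 3 of the 4 were positive, and Cyp2e1 gave -0.41. Adipocyte markers summed to 32.7 to 35.3 in db/db mice and 34.5 to 122 in db/m mice, the highest value being that of db/m replicate 2. The part of these marker differences in the results below was not tested. In RNA of a whole tissue, fewer cells of a type and less RNA per cell cannot be told apart.

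Among the 33 measured glutathione genes, Gsto1 was the gene called changed. It was higher in db/db mice, 1 of 33 genes or 3.03%, where 0.194% of all genes were called higher and 0.482% were called in either direction. None was called lower by limma, where 0.289% of all genes were. Of the 33, 4 had an unadjusted p under 0.05 in that direction and 5 in the other, where 4.7% of all genes had one in the lower and 5.92% in the higher direction. With the thresholds of the study, at least a 1.5-fold change with unadjusted p < 0.05, 3 genes were higher (Gsta4, Gm10639 and Gsto1) and 1 was lower (Ggct), where 1.02% of all genes passed in the higher and 0.807% in the lower direction. Every db/db mouse was above every db/m mouse in 7 genes (Gsta3, Gsta4, Gm10639, Gstt3, Gsto1, Mgst1 and Gpx8) and below every db/m mouse in 4 (Gclc, Gclm, Gss and Ggct). Those are 21.2% and 12.1% of the measured genes, and 9.17% and 7.62% of all genes.

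The median log2 fold change was above 0 for the transferases and slightly below 0 for the other glutathione enzymes. The log2 fold change was positive for 16 of 20 transferases, with a median of 0.19, and for 4 of the 13 other enzymes, with a median of -0.08. Over all genes 51.2% were positive and the median was 0.00, and over the 33 genes 20 were positive with a median of 0.08, which dropped to 0.01 when db/m replicate 1 was left out and reached 0.14 when db/db replicate 3 was. These are descriptions of the gene groups, and the difference between them was not tested.

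**Figure D1:**
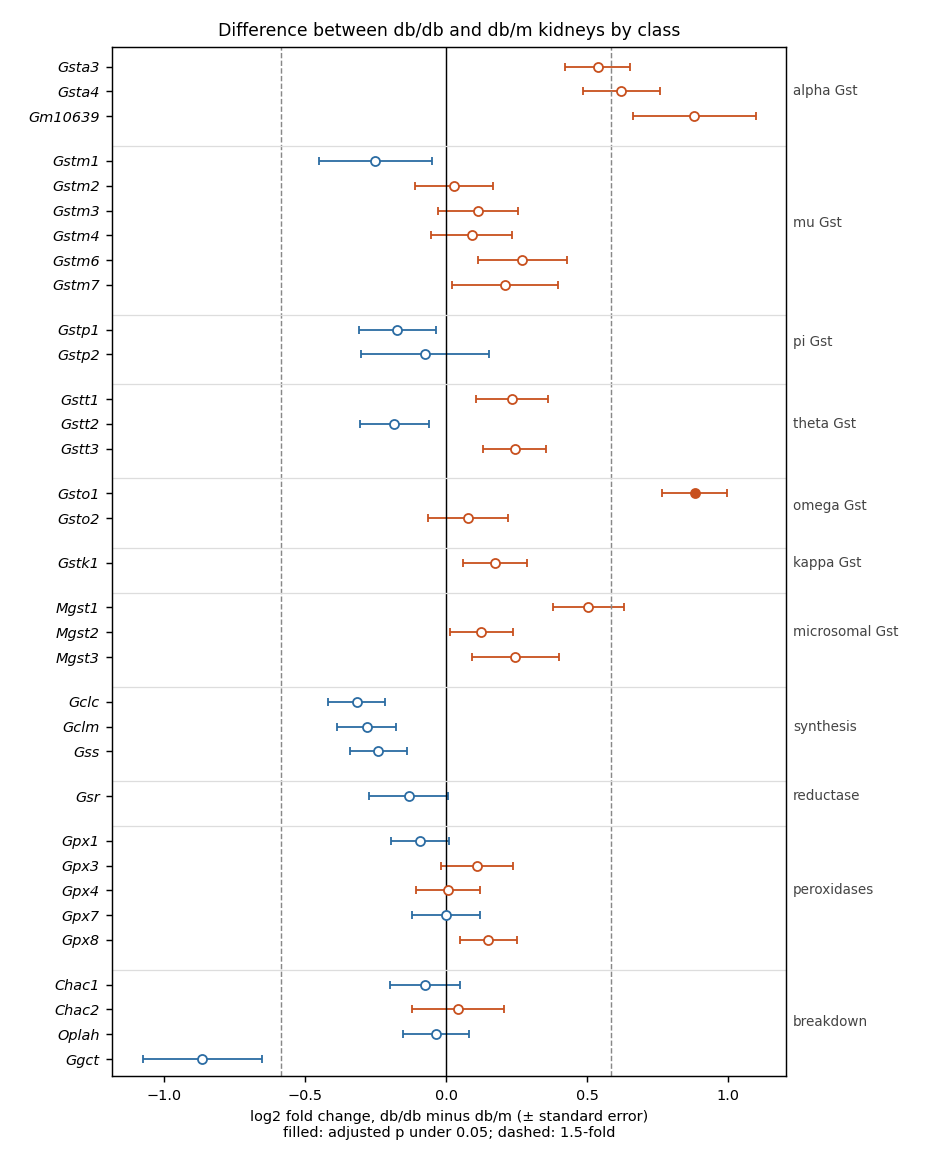
Log2 fold change (db/db minus db/m) of the 33 measured genes on the horizontal axis, with the standard error from limma as bars and genes grouped by class down the page (red above 0, blue below, dashed lines at 1.5-fold). Gsto1, the filled point, was the gene called at an adjusted p under 0.05, the 3 alpha transferases lay to the right of 0, and the 3 synthesis genes and Ggct lay to the left.

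**Figure D2:**
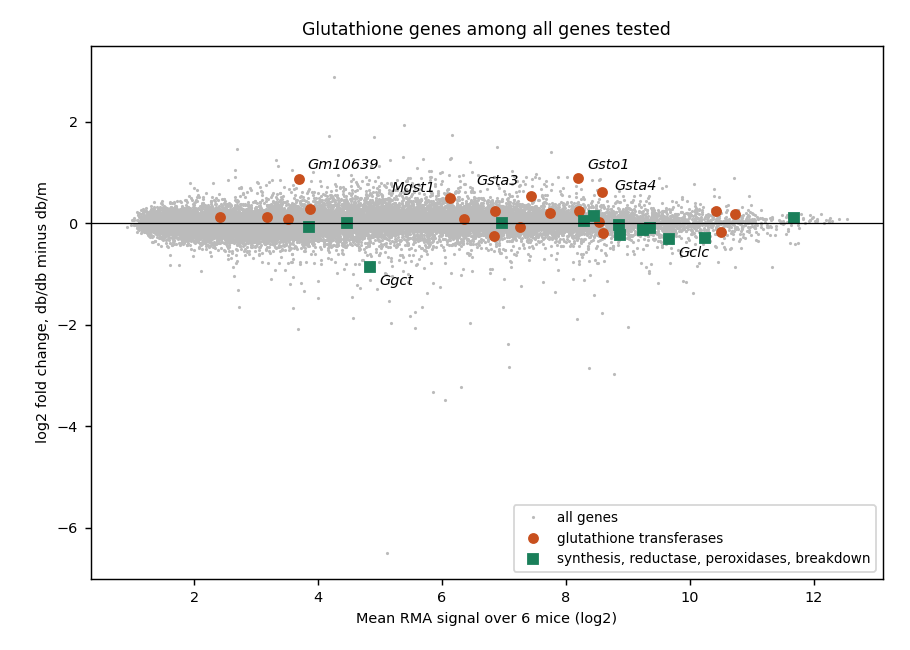
Log2 fold change, db/db minus db/m (vertical axis), against the mean log2 signal over 6 mice (horizontal axis) for all 22180 genes in grey, the 20 transferases as red circles and the 13 other glutathione genes as green squares. Gsto1 and Gm10639 stood at 0.88, Ggct at -0.87, and most of the others lay within the grey band around 0.

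Gsto1 rose 1.84-fold in db/db kidneys. The omega class carries a cysteine in its active site, and Gsto1 reduces dehydroascorbate, methylated arsenic and mixed disulphides rather than mainly conjugating glutathione. Its signals were 8.57, 8.59 and 8.76 in db/db mice, against 7.63, 7.91 and 7.74 in db/m mice. The mice of each genotype lay close together, and the groups were well apart. The log2 fold change was 0.88 ± 0.12 (SE), with a 95% interval of 0.62 to 1.14 and an adjusted p of 0.016 in limma. With 1 mouse left out the log2 fold change stayed between 0.82 and 0.96, but the adjusted p lay between 0.0298 and 0.0706 and was under 0.05 in 1 of 6 fits, the one without db/m replicate 2. The call was lost with the methods' t-test (adjusted p = 0.299) and with limma over all 41345 probe sets (adjusted p = 0.103). Gsto2, which lies beside Gsto1 on chromosome 19 and has strong dehydroascorbate reductase activity, measured 3.39 to 3.69 in db/db mice and 3.26 to 3.73 in db/m mice. These Gsto2 signals were near the array median, which limits what its probe set can show. The Gsto2 groups overlapped, with a log2 fold change of 0.08 (95% interval -0.25 to 0.40), and the difference between the 2 omega genes was not tested.

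The promoter of Gsto1 is shown because this was the gene called. The 250 bases before its start, from the RefSeq promoter table of GRCm38.p6, held no match to the core of the antioxidant response element, written TGACNNNGC and searched on both strands, the element through which NRF2 acts on many glutathione genes.
Gsto1, chr19:47854723-47854972, plus strand: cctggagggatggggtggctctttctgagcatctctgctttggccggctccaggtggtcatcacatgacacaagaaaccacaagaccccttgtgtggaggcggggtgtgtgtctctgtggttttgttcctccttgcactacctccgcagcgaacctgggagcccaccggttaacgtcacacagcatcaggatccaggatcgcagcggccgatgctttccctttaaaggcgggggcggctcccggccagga
Such a match was found in 10.2% of the 32851 promoters of the table and in 6 of the 44 promoters, or 13.6%, that it holds for 32 of the glutathione genes (Gclm, Ggct, Gsta3, Gstm5, Gstm7 and Mgst1). A match of these letters is a description and not a site, and a missing match says nothing about the factor.

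**Figure D3:**
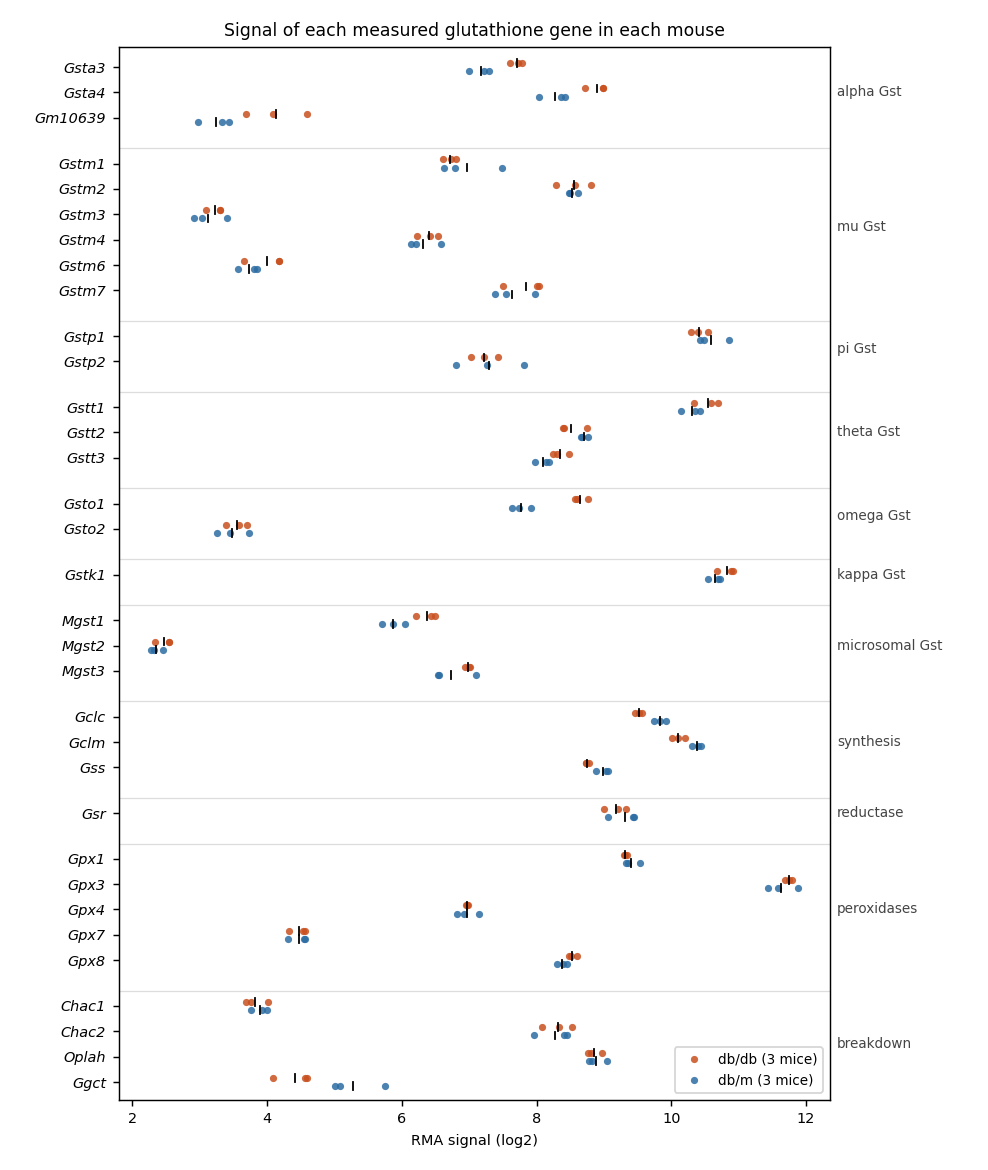
Deposited log2 signal (horizontal axis) of each mouse for the 33 measured genes down the page, db/db mice in red above db/m mice in blue, 3 points each, with the group mean as a black tick. The db/db mice lay above the db/m mice in Gsto1, at 8.57 to 8.76 and 7.63 to 7.91, and below them in Ggct, at 4.09 to 4.58 and 5.0 to 5.75.

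The 3 measured alpha transferases were higher in every db/db mouse than in every db/m mouse, by 1.45-fold to 1.84-fold, and none passed the test. Alpha enzymes handle lipid peroxidation products and organic hydroperoxides. Gsta3, which in mice detoxifies the epoxide of aflatoxin B1, had signals of 7.79, 7.72 and 7.61 in db/db mice, against 6.99, 7.22 and 7.29 in db/m mice. The log2 fold change was 0.54 ± 0.12 (SE), with an adjusted p of 0.112. Gsta4, the enzyme most active on the lipid aldehyde 4-hydroxynonenal, had signals of 8.99, 8.98 and 8.71 in db/db mice, against 8.03, 8.36 and 8.42 in db/m mice. The groups did not overlap, and the log2 fold change of 0.62 ± 0.14 (SE) had an adjusted p of 0.119. Gm10639, a predicted alpha transferase gene, measured 4.60, 3.69 and 4.09 in db/db mice, against 2.97, 3.44 and 3.33 in db/m mice. It was dim, with a db/m mean of 3.25 below the median probe set, and spread widely among the db/db mice, with a log2 fold change of 0.88 ± 0.22 (SE) and an adjusted p of 0.154. Leaving out 1 mouse moved its log2 fold change between 0.64 and 1.10, and those of Gsta3 and Gsta4 between 0.45 and 0.60 and between 0.50 and 0.71, all without a call.

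A further 3 probe sets were annotated to several alpha genes of chromosome 9 at once, so their signals belong to the cluster and to no single gene. The brightest of them, which names 4 genes, measured 8.64, 8.17 and 8.25 in db/db mice, against 6.18, 6.71 and 6.99 in db/m mice. The groups were far apart, the log2 fold change was 1.73 ± 0.23 (SE), a 3.31-fold difference, and the adjusted p was 0.0969 in limma over all probe sets. It passed the thresholds of the study, as did 1.29% of all probe sets in the higher direction, while limma called 0% of them higher and 0.0218% lower. With 1 mouse left out it was 1.51 to 1.91, with adjusted p values of 0.207 to 0.302. The other shared probe sets gave log2 fold changes of 0.17 (adjusted p = 0.824) and, at signals of 1.47 to 1.96, of -0.29 (adjusted p = 0.611). The last of these was under the array median, so no direction is read from it.

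Upstream sequences of alpha genes show how alike members of the cluster can be. Over the 250 bases before the start, Gsta1 and Gm10639 were 87.9% identical, Gsta1 and Gsta2 70.5% and Gsta2 and Gm10639 62.1%. Gm3776, also named by the brightest shared probe set, was 97.2% identical to Gm10639, 89.7% to Gsta1 and 63.2% to Gsta2. Gsta3, on chromosome 1, was 50.6% to 52.2% identical to these genes, and no unrelated sequences were aligned for comparison. The match in Gsta3 is in capitals and begins 121 bases before its start, and the other 2 promoters shown, of Gsta1 and Gm10639, held none.
Gsta3, chr1:21240335-21240584, plus strand: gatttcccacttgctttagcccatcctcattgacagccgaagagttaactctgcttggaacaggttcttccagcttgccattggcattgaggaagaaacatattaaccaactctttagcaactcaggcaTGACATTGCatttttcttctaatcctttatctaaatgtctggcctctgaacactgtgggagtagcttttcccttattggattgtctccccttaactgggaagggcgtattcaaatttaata
Gsta1, chr9:78230419-78230668, plus strand: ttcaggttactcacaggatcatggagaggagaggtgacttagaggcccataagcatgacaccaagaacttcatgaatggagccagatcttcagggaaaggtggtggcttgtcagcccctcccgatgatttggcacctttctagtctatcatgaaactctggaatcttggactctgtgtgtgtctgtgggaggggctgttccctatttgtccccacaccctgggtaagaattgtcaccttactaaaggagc
Gm10639, chr9:78289678-78289927, plus strand: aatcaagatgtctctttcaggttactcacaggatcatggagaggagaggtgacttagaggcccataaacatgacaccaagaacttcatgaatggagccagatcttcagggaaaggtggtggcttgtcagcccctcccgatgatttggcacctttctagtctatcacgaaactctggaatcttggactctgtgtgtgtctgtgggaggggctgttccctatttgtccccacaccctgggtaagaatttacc

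The microsomal transferases are membrane proteins of another family, and all 3 had positive log2 fold changes with a median of 0.24. Mgst1, which conjugates glutathione and also reduces lipid hydroperoxides in the endoplasmic reticulum and outer mitochondrial membrane, measured 6.22, 6.43 and 6.49 in db/db mice, against 5.71, 5.86 and 6.05 in db/m mice. All db/db mice were above all db/m mice, with a log2 fold change of 0.50 ± 0.13 (SE), a 1.42-fold difference, and an adjusted p of 0.162. Mgst3, the brightest of the class, measured 7.0, 6.94 and 6.99 in db/db mice, against 6.54, 6.56 and 7.10 in db/m mice. Here db/m replicate 3 lay above every db/db mouse, and the log2 fold change of 0.24 became 0.43 without it. Mgst2 was dim, at 2.33 to 2.55 in db/db mice and 2.27 to 2.46 in db/m mice.

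The mu, pi, theta and kappa transferases showed small log2 fold changes, between -0.25 and 0.27, with adjusted p values of at least 0.491. Mu transferases conjugate epoxides and quinones, and their genes lie together on chromosome 3. Gstm2, the brightest of them, measured 8.80, 8.57 and 8.29 in db/db mice, against 8.50, 8.47 and 8.61 in db/m mice. The db/db mice straddled the db/m mice, and the log2 fold change was 0.03 (95% interval -0.28 to 0.34). Gstm6 gave 0.27, Gstm7 0.21, Gstm3 0.11 and Gstm4 0.09, and the groups overlapped in all 4. Gstm1 gave -0.25, which rested on db/m replicate 3 at 7.48 while the other db/m mice were at 6.79 and 6.62 and the db/db mice between 6.61 and 6.81, and it was 0.01 without that mouse.

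Gstp1, a transferase abundant in many epithelia, measured 10.40, 10.55 and 10.29 in db/db mice, against 10.48, 10.43 and 10.85 in db/m mice. Its groups overlapped, and the log2 fold change of -0.17 had an adjusted p of 0.7. Gstp2 gave -0.08 over all mice and 0.18 without db/m replicate 3, so its sign depended on that mouse. Gstt1, a theta enzyme that acts on small halogenated compounds, measured 10.59, 10.69 and 10.34 in db/db mice, against 10.14, 10.36 and 10.42 in db/m mice. Of the db/db mice, replicate 3 alone lay within the db/m range, and the log2 fold change was 0.23 (95% interval -0.06 to 0.52). Gstt3 gave 0.24 with no overlap and Gstt2 -0.18 with overlap (95% interval -0.46 to 0.09). The estimates of the 3 theta neighbours on chromosome 10 thus did not share a sign, but each interval included 0 and the difference was not tested. Gstk1, the kappa enzyme of mitochondria and peroxisomes, measured 10.91, 10.89 and 10.67 in db/db mice, against 10.54, 10.69 and 10.73 in db/m mice, with a log2 fold change of 0.17 and db/db replicate 3 inside the db/m range.

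The 3 genes of glutathione synthesis were lower in every db/db mouse than in every db/m mouse, by 1.18-fold to 1.25-fold, and none passed the test. Glutamate-cysteine ligase, the rate-limiting enzyme, is built of the catalytic subunit Gclc and the modifier Gclm, and glutathione synthetase, Gss, adds glycine. Gclc measured 9.51, 9.57 and 9.47 in db/db mice, against 9.92, 9.75 and 9.84 in db/m mice, with a log2 fold change of -0.32 ± 0.10 (SE) and an adjusted p of 0.288. Gclm measured 10.20, 10.01 and 10.09 in db/db mice, against 10.45, 10.30 and 10.40 in db/m mice, with a log2 fold change of -0.28 ± 0.10 (SE) and an adjusted p of 0.368. Gss measured 8.78, 8.72 and 8.74 in db/db mice, against 9.03, 8.88 and 9.06 in db/m mice, with a log2 fold change of -0.24 ± 0.10 (SE) and an adjusted p of 0.448. The shifts were small but of similar size in both ligase subunits and the synthetase, and the median of the 3 stayed between -0.32 and -0.24 with any 1 mouse left out.

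Of the enzymes that break glutathione down, Ggct was lower in every db/db mouse. Gamma-glutamylcyclotransferase, Ggct, releases 5-oxoproline from gamma-glutamyl amino acids. Its signals were 4.58, 4.57 and 4.09 in db/db mice, against 5.0, 5.09 and 5.75 in db/m mice. The 2 extreme values were db/db replicate 3, the lowest, and db/m replicate 3, the highest. The log2 fold change was -0.87 ± 0.21 (SE), a 1.82-fold difference, with an adjusted p of 0.151, and it was -0.63 without db/m replicate 3 and -1.0 without replicate 1 of that genotype. Oplah, which opens 5-oxoproline to glutamate and was the brightest of the group, measured 8.76, 8.81 and 8.97 in db/db mice, against 8.82, 8.78 and 9.05 in db/m mice. Oplah overlapped between the groups at -0.04, as did Chac1 at -0.08 and Chac2 at 0.04, the cyclotransferases that act on glutathione itself.

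Promoters of 3 more of the 6 genes with a match to the response element core are shown, picked after their directions of change were seen. Such matches were in 13.6% of the promoters of glutathione genes and 10.2% of all promoters. Mgst1 was higher in every db/db mouse, and Gclm and Ggct were lower, but none of the 3 was called. A link between a match and the direction of change was not tested. Each of the 3 carries a match, in capitals, on the minus strand relative to the gene. The matches begin 56, 134 and 174 bases before the start. Mgst1 has a further start in the table, and the bases before that start held no match.
Mgst1, chr6:138140277-138140526, plus strand: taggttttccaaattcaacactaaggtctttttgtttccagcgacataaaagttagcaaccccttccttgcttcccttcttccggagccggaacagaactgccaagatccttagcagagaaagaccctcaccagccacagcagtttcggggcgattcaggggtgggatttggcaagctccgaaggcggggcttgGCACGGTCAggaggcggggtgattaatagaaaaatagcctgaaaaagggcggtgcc
Gclm, chr3:122245307-122245556, plus strand: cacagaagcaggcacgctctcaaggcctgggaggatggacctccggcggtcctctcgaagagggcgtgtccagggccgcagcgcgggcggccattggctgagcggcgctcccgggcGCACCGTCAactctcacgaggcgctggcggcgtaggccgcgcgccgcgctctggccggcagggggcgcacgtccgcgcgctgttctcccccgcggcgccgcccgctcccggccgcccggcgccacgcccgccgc
Ggct, chr6:54992868-54993117, minus strand: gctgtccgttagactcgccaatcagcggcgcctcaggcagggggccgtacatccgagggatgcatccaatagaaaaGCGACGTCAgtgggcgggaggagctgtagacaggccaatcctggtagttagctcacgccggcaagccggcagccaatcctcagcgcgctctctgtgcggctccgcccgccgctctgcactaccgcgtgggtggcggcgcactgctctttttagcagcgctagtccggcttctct

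The reductase and the peroxidases overlapped between genotypes, except Gpx8. Gsr, glutathione reductase, measured 9.21, 9.0 and 9.32 in db/db mice, against 9.05, 9.43 and 9.44 in db/m mice, with a log2 fold change of -0.13. Gpx3, the secreted peroxidase of plasma that proximal tubule cells make, measured 11.74, 11.79 and 11.68 in db/db mice, against 11.43, 11.58 and 11.87 in db/m mice. The db/db mice sat inside the db/m range, with a log2 fold change of 0.11 (95% interval -0.18 to 0.40). The cytosolic peroxidase Gpx1 gave -0.09, the phospholipid hydroperoxide peroxidase Gpx4 0.01 and Gpx7, of the endoplasmic reticulum, 0.00. Gpx8, also of the endoplasmic reticulum, measured 8.47 to 8.59 in db/db mice and 8.30 to 8.44 in db/m mice, with a log2 fold change of 0.15 and an adjusted p of 0.651.

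Averaged over a class, mice of the same genotype also differed from each other. Taken as the mean deviation from the db/m mean, the alpha class stood at 0.89, 0.57 and 0.57 in db/db mice and at -0.23, 0.11 and 0.12 in db/m mice. The synthesis class stood at -0.24, -0.30 and -0.30 in db/db mice and at 0.06, -0.09 and 0.03 in db/m mice. The mu class stood at 0.17, 0.17 and -0.12 in db/db mice and at -0.13, -0.08 and 0.21 in db/m mice, with db/db replicate 3 low and db/m replicate 3 high. Across the 33 genes, db/db replicate 3 was the lowest db/db mouse in 54.5%, where it was the lowest in 35.7% of all genes. Within db/m mice, replicate 3 was the highest in 72.7% and replicate 1 the lowest in 57.6%, where these were 39.9% and 36.8% of all genes. Without db/m replicate 3 the sign of the log2 fold change turned in 5 of the 33 genes, among them Gstm1 and Gstp2 as given above, Chac2 (-0.12) and Oplah (0.04). Without the same mouse, Gstm7 was at 0.38, Gstm4 at 0.23, Gpx3 at 0.23 and Gstp1 at -0.04, none of them called.

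**Figure D4:**
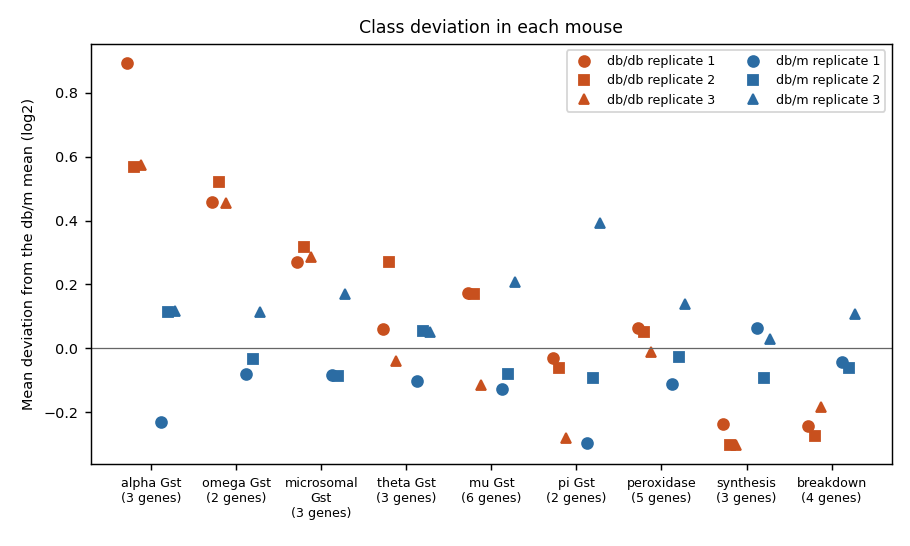
Mean deviation from the db/m mean on the log2 scale (vertical axis) for each mouse and gene class (horizontal axis), db/db mice in red at the left and db/m mice in blue at the right of each class, with the number of measured genes under each name. The db/db mice lay above all db/m mice in the alpha, omega and microsomal classes, of which omega was carried by Gsto1 at 0.88 with Gsto2 at 0.08. They lay below all db/m mice in the synthesis and breakdown classes, of which breakdown was carried by Ggct at -0.87 with the other 3 genes between -0.08 and 0.04. The mouse db/m replicate 3 stood highest in the mu, pi and peroxidase classes.

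**Figure D5:**
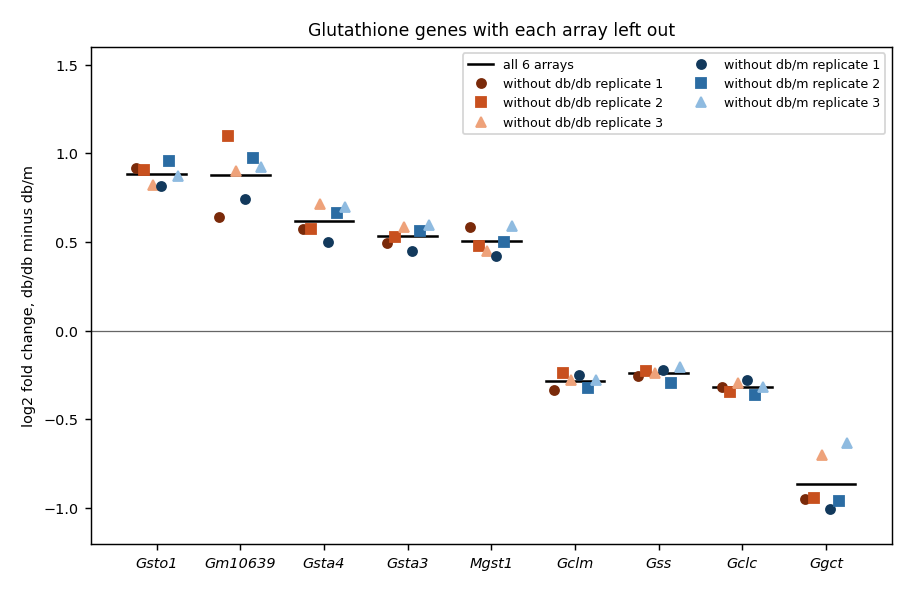
Log2 fold change (db/db minus db/m) (vertical axis) of selected genes with all mice, as a line, and with each of the 6 mice left out in turn. Gsto1 stayed between 0.82 and 0.96, while Gm10639 ranged from 0.64 to 1.10 and Ggct from -1.0 to -0.63.

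Around these genes, 102 other genes of glutathione metabolism were listed by function, and 92 were measured. Of the 92, limma called 2 higher and 3 lower, where 0.194% and 0.289% of all genes were called, and the median log2 fold change was 0.01. Both genes that rose encode exporters of glutathione conjugates and other organic anions. Abcc3 measured 6.28, 5.74 and 7.01 in db/db mice, against 3.81, 4.63 and 4.81 in db/m mice, a 3.80-fold difference with an adjusted p of 0.0466. Abcc4 measured 8.48, 8.68 and 8.29 in db/db mice, against 7.34, 7.59 and 7.77 in db/m mice, a 1.89-fold difference with an adjusted p of 0.0354. The groups were clear of each other in both exporters. Of the 10 measured transport genes 8 had positive log2 fold changes, where 51.2% of all genes did, but the median was only 0.07. The brightest, the dicarboxylate transporter Slc13a3, gave 0.08, and no transport gene other than the 2 exporters was called.

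The list of the gamma-glutamyl cycle and mercapturate enzymes lay mostly below 0. Of its 12 measured genes 9 were negative and 3 positive, where 51.2% of all genes were positive, and the median log2 fold change was -0.21. In the same list, 7 were lower in every db/db mouse, 2 were higher in every db/db mouse, and 1 was called, where 7.62%, 9.17% and 0.482% of all genes were. Cndp2, a cytosolic dipeptidase that splits cysteinylglycine, fell to 9.69, 9.83 and 9.55 in db/db mice, against 10.60, 10.55 and 10.45 in db/m mice, with a log2 fold change of -0.84 and an adjusted p of 0.0162. Acy3, the brightest of the list and the aminoacylase that removes the acetyl group from mercapturates, measured 11.65, 11.61 and 11.36 in db/db mice, against 11.91, 11.97 and 11.95 in db/m mice, with a log2 fold change of -0.40 and an adjusted p of 0.216. Acy1, a related aminoacylase, gave -0.47, the aminopeptidase Lap3 -0.40 and Ggact, which splits gamma-glutamylamines, -0.26, none of them called. The 2 genes higher in every db/db mouse were Dpep2 at 0.45 and Ggt5 at 0.35, and neither was called. Dpep1, the brush border dipeptidase, overlapped between the groups at -0.07.

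Csad, which makes hypotaurine from cysteine sulfinate, fell to 8.21, 8.11 and 8.01 in db/db mice, against 8.89, 8.77 and 9.02 in db/m mice (log2 fold change -0.79, adjusted p = 0.0217). It was the 1 gene called of 13 measured for cysteine and glutamate supply, and Slc1a4, a neutral amino acid transporter, gave -0.91 with an adjusted p of 0.102. Me1, the cytosolic malic enzyme that yields NADPH, fell to 9.08, 8.85 and 8.67 in db/db mice, against 9.68, 9.64 and 9.83 in db/m mice (log2 fold change -0.85, adjusted p = 0.027). No other NADPH gene of the 8 measured was called. With 1 mouse left out, Abcc4 was called in 0 of 6 fits and Abcc3, Cndp2, Csad and Me1 in 1 of 6 each.

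None of the other lists, with 13, 20, 3 and 13 measured genes, held a call by limma. They held 5 genes past the study's thresholds, which 1.02% of all genes passed in the higher and 0.807% in the lower direction. Of the relatives of the transferases, these were Gstp3, a pi transferase, at 1.27 (adjusted p = 0.117), and the leukotriene C4 synthase gene Ltc4s at 0.74 (adjusted p = 0.14). Among 13 measured NRF2 genes outside glutathione metabolism, those past the thresholds were the microsomal epoxide hydrolase Ephx1 at 0.67 (adjusted p = 0.0685), carbonyl reductase Cbr1 at 0.88 (adjusted p = 0.242) and heme oxygenase Hmox1 at -0.61 (adjusted p = 0.397). The brightest genes of the remaining lists stayed near 0, at -0.07 for the chloride intracellular channel protein Clic4, -0.04 for catalase, Cat, 0.01 for the glyoxalase Hagh, 0.08 for Idh1, -0.08 for the cystine transporter subunit Slc3a1 and 0.09 for ferritin heavy chain, Fth1. Unadjusted p values were under 0.05 for 11 higher and 14 lower of the 92 genes, and for 5.92% higher and 4.7% lower of all genes.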

How the data were processed

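The authors deposited a table of log2 signals, with a value for each probe set on each array. Per the submitters' processing notes, they come from RMA as run in Affymetrix Expression Console (version not given in the sources used here). RMA corrects background, normalizes by quantiles and summarizes probes, and the notes name no filter or build. The array named in the methods is not the platform that the identifiers of the probe sets match, and symbols follow the matching platform: 23521 of 41345 probe sets name 1 gene, 1820 several and 16004 none. Each gene was read at its brightest probe set that names it alone. Arrays give no counts, so the 3 arrays per group limit the precision. No scan date or other batch was given.

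The db/db and db/m groups were set against each other with limma 3.58.1 under R 4.3.3 (lmFit, eBayes, two-sided, no covariate), where the methods name a one-way test per gene, and p-values were adjusted by Benjamini-Hochberg over 22180 genes. With 3 mice per group an exact permutation test of 1 gene cannot go below p = 0.1. The glutathione genes and the lists around them were chosen by function, with earlier results of these data known. Values in every mouse were given for genes called, past the study's thresholds, or without overlap at 1.3-fold or more, and for the brightest of each class, and Gclc and Gss were added after their values were seen. Of the genes in the lists around them, those called or past the thresholds and the brightest of each list were named. Acy1, Lap3, Ggact, Dpep1, Dpep2 and Ggt5 were added after their values were seen. Marker sums are sums of linear signals.

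Promoters came from the RefSeq table of GRCm38.p6, searched with Python 3.11.15 and aligned with Biopython 1.88. The files name no build, so no other coordinates are given. The scripts were tested on simulated data. Alternatives were quantile normalization, median centring, removal of dim probe sets, the methods' t-test, limma with robust and trended variances, limma over all probe sets, a gene read as the mean of its probe sets, a replicate block, a threshold of 0.1 on the adjusted p, and each array left out in turn.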

Additional observations from a re-analysis of the deposited data

How the results depend on the processing

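All genes called at an adjusted p under 0.05 numbered 43 higher and 64 lower, glutathione genes 1 higher and 0 lower, and genes of the lists around them 2 higher and 3 lower. Quantile normalization left 1 list gene higher. The methods' t-test called 0 genes higher and 2 lower of all, 0 glutathione genes and 0 list genes in either direction, although 5 glutathione genes higher and 4 lower, and 8 list genes higher and 11 lower, had an unadjusted p under 0.05. Limma over all probe sets called 0 genes higher and 9 lower, 0 glutathione genes and 0 list genes, with 5 glutathione genes higher and 3 lower, and 10 list genes higher and 9 lower, below 0.05 before adjustment. An adjusted p under 0.1 gave 96 higher and 97 lower.

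Replicate numbers gave no sign of pairing, as deviations of same-numbered mice correlated at 0.04, -0.05 and -0.08, and those of differently numbered mice at -0.05 to 0.09. With 3 mice per group, these values cannot exclude a pairing. With the replicate block, 19 genes were called higher and 42 lower, 1 list gene lower, and Gsto1 was still called.

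With 1 mouse left out, 8 (without db/db replicate 1) to 26 (without db/m replicate 2) genes were called higher and 20 to 43 lower, 0 to 1 glutathione genes higher, 0 to 1 list genes higher and 0 to 2 lower. Glutathione genes past the study's thresholds in the higher direction numbered 2 to 5, the highest without db/m replicate 3. The microsomal median lay between 0.16 and 0.43 and the breakdown median between -0.14 (without db/db replicate 3) and -1.83e-05. Of 238 values of 17 named glutathione genes, 231 kept their side of the threshold, and 7, all of Gsto1, kept the direction and lost the call. Most of the 231 were uncalled genes that stayed uncalled, so their number does not measure how stable the call of Gsto1 was. Gsto1 was the only named gene with a call to lose, and its call was lost in 7 of 14 settings. It was kept in 1 of the 6 fits with 1 mouse left out and in 6 of the 8 other settings. Direction was not kept throughout, as the uncalled genes Gstm2 and Oplah, both near 0, each kept their sign in 4 of the 6 fits with 1 mouse left out. Median centring moved the median of all genes by 0.02 and quantile normalization by -0.01, and each turned the sign of 1 gene near 0. The cause of the lost calls was not tested. Dim genes such as Gstm3, Mgst2 and Gm10639 are limited by signal over background.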
